A study of Mus musculus with 67 samples.

Results

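Globin and erythroid genes were measured in mouse forelimb buds by RNA-seq. The 10 genes are the embryonic α-like globin Hba-x, the α-globins Hba-a1 and Hba-a2, the embryonic β-like globins Hbb-bh1 and Hbb-y, the adult-type β-globins Hbb-bs and Hbb-bt, and the erythroid genes Alas2, Gata1 and Klf1. They were chosen by name, and all 10 were found among the 46983 gene IDs of the 14 deposited RNA-seq tables. The study asked whether loss of GLI3, the repressor of Hedgehog (HH) target genes, changes expression before and after the onset of HH signalling. Its RNA-seq libraries fell into 4 groups. Before HH signalling (pre-HH, E9.25, 21 to 23 somites) the entire forelimb bud was taken, 4 pairs per library in the sample records, for 3 WT and 4 Gli3-/- libraries. After its onset (post-HH, E10.5, 32 to 35 somites) only the anterior part of the bud was taken, 2 pairs per library in the sample records, for 4 WT and 3 Gli3-/- libraries. The study's methods instead give about 4 pairs per replicate for each stage, so the sources differ for E10.5. WT embryos were Swiss Webster mice, and Gli3-/- embryos carried the constitutive Gli3Xt-J allele kept on the same background, with no transgene or Cre. Buds from several litters were pooled, so that each library is a mixture of embryos and of all cells of the bud, blood included. The change from E9.25 to E10.5 is also a change from whole to anterior buds, and the 2 cannot be told apart here.

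Red cells of the midgestation embryo are primitive erythrocytes, which are made in the yolk sac and mature while they circulate through the young vessels of the body, the limb buds included. Their haemoglobin joins α-like chains (Hba-x and the α-globins) with β-like chains (Hbb-bh1 and Hbb-y), and as these cells mature the balance is known to move from Hbb-bh1 to Hbb-y and from Hba-x to the α-globins. The adult-type chains Hbb-bs and Hbb-bt belong mainly to the definitive red cells that the fetal liver makes later. GATA1 and KLF1 are transcription factors that activate globin genes and most other genes of the red cell, and ALAS2 is the erythroid form of the first enzyme of heme synthesis.

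The α-like genes lie side by side on chromosome 11 and the β-like genes on chromosome 7. In the coordinates of the deposited tables (mm10 in the submitters' processing notes), Hba-x is at chr11:32276400-32278116, Hba-a1 at chr11:32283511-32284465 and Hba-a2 at chr11:32296489-32297298, all on the plus strand. On the minus strand are Hbb-y at chr7:103851745-103853240, Hbb-bh1 at chr7:103841636-103843164, Hbb-bs at chr7:103826534-103828096 and Hbb-bt at chr7:103812524-103813996. Alas2 is at chrX:150547375-150570638, Gata1 at chrX:7959260-7978071 and Klf1 at chr8:84901928-84905295.

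The sequence just upstream of 5 globin genes is shown because Hbb-bs and Hbb-bt varied among the libraries in another way than the other globins. Each run holds the 220 bases before the RefSeq start site (GRCm38.p6), 5′ to 3′ on the strand of the gene, at chr11:32276380-32276599 for Hba-x, chr11:32283452-32283671 for Hba-a1, chr7:103853208-103853427 for Hbb-y, chr7:103827929-103828148 for Hbb-bs and chr7:103813924-103814143 for Hbb-bt. Capitals mark GATA words (AGATAA or TGATAA or AGATAG or TGATAG), the CACCC-type word CCNCNCCC, CCAAT and TATAA, each searched on both strands.
Hba-x: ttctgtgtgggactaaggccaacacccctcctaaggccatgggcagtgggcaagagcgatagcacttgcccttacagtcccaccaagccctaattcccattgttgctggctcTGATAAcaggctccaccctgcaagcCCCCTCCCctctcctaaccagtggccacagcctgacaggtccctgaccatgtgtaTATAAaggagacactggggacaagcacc
Hba-a1: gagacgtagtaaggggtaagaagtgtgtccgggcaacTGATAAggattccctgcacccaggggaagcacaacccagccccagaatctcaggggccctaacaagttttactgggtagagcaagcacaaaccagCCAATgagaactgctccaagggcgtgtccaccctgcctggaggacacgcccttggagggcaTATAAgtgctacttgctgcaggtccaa
Hbb-y: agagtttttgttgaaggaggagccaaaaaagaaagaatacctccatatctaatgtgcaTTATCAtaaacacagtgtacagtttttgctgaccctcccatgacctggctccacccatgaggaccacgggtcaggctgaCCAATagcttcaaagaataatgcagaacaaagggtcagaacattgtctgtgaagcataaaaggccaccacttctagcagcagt
Hbb-bs: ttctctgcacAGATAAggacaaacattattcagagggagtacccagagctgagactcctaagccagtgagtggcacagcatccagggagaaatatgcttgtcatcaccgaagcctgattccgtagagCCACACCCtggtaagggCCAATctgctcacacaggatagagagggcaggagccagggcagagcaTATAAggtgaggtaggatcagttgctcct
Hbb-bt: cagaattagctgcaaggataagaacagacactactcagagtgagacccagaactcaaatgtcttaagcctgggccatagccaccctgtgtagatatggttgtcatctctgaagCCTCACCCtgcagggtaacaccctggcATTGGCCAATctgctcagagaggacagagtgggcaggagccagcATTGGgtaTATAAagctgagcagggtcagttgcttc

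A GATA word was found in the 250 bases before the start of 7 of the 9 members that have a RefSeq promoter entry, against 26.5% of all 32851 promoters of that length. Counted from the start site, it stood at -108 and -234 for Hba-x, at -183 for Hba-a1, at -162 for Hbb-y and at -210 for Hbb-bs, and these letters are not in the Hbb-bt window. The CACCC-type word, the kind of word that KLF factors bind, was in 5 of 9 windows (45.9% of all promoters), among them those of Hba-x, Hbb-bs and Hbb-bt. CCAAT was in 6 (33.8%) and TATAA in 6 (22.8%). Matches of a word may overlap, as in the Alas2 window, which holds 4 overlapping or adjacent CACCC-type matches. The windows of Hba-a1 and Hba-a2 share a run of 297 of their 300 bases, against a longest shared run of 14 bases between Hbb-bs and Hbb-bt. The RefSeq starts lie inside the deposited features, by 33 bases for Hbb-y and by 200 for Hba-x. These matches are descriptions of the letters, and binding was not measured here.

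Depth was estimated at 38.1 to 56.8 M reads per library. A TPM (a level per length of transcript, with 1 common total for all libraries) of 1 most often corresponded to 20.7 to 29.3 reads per kilobase. Single genes departed from this most frequent quotient, such as Hba-x with 18850 reads per kilobase at 1689 TPM in E10.5 WT library 2. The least covered member, Gata1, had 47.9 to 330 reads per kilobase, and the most covered, Hbb-y, had 50037 to 338996. Gli3 itself was lower in Gli3-/- than in WT libraries at E10.5, with 38.7 to 40.9 TPM against 73.4 to 89.7 (log2 fold change -1.01 ± 0.08 SE, adjusted p = 0.000335, limma, and 0.0609 with 1 model of 14 libraries). At E9.25 it had 14.3 to 20.8 TPM in Gli3-/- and 44.2, 15.8 and 44.6 TPM in WT libraries 1, 2 and 3 (log2 fold change -0.74 ± 0.32 SE, adjusted p = 0.223), so the TPM of WT library 2 overlaps that of the mutants. With single libraries left out this fold change went from -1.22 to -0.50, and 1 of 7 fits passed (adjusted p = 0.0415, limma). The coverage of Gli3 did not overlap, at 438, 130 and 395 reads per kilobase in these WT libraries and 41.4 to 78.6 in the mutants. At E10.5 the coverage of Gli3 was 519.8 to 805.9 reads per kilobase in WT and 113.5 to 160 in Gli3-/-, a larger drop than in TPM. One library of each mutant group stood apart in blood genes. The globins together made up 2.87% of all TPM in E9.25 Gli3-/- library 3 and 4.27% in E10.5 Gli3-/- library 3, against 0.849% to 2.11% in the other 12 libraries. In bulk tissue, fewer red cells and less globin RNA per red cell cannot be told apart, and every TPM below is a share of the RNA of a library, not an amount per bud.

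The order of the levels in TPM was much the same in the 4 groups. Hbb-y and Hbb-bh1 were highest, with group medians of 4477 to 6287 and 3887 to 4960 TPM. Next were Hba-x with medians of 1830 to 2595 TPM, Hba-a1 with 1233 to 2036 and Hba-a2 with 1026 to 1594. The place of Hba-x above Hba-a1 depends on the measure. In reads per kilobase Hba-a1 exceeded Hba-x in every E10.5 library (40750 against 38170 in WT library 1), and at E9.25 the order varied between libraries. The adult-type chains were far lower, at medians of 66.7 to 406 TPM for Hbb-bs and 52.7 to 338 for Hbb-bt. Alas2 had medians of 33 to 40.5 TPM, Klf1 7.59 to 10.1 and Gata1 3.80 to 4.82 or, in E9.25 WT, 5.19. The ranges of Hba-a1 and Hba-a2 overlapped in every group, as did those of Hbb-bs and Hbb-bt. Hbb-y and Hbb-bh1 overlapped except in E10.5 WT, where all 4 libraries had more Hbb-y. In all 4 groups every library had more Hba-a2 than Hbb-bs or Hbb-bt.

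**Figure D1:**
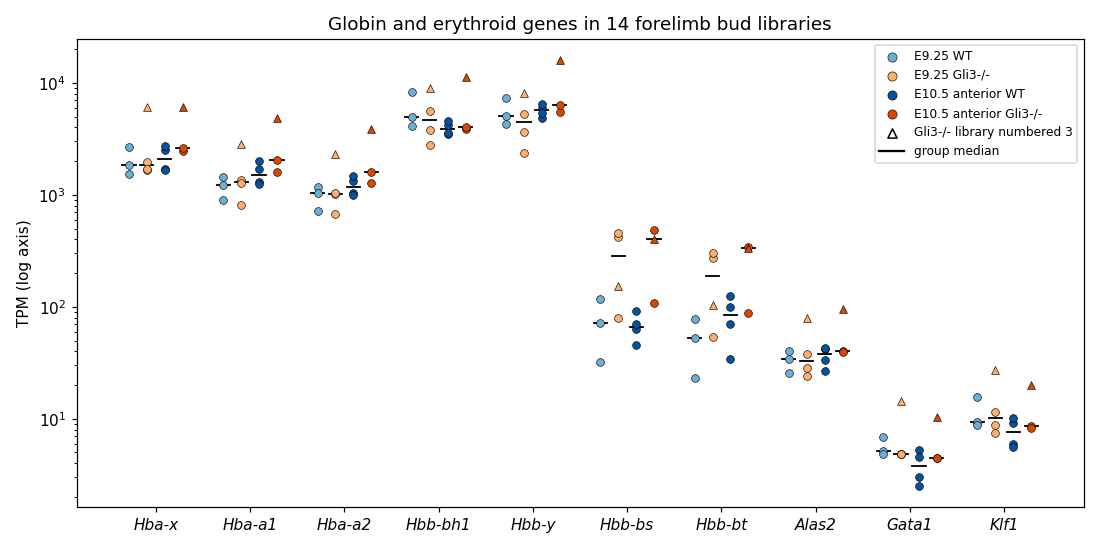
TPM (log axis) of each of the 10 genes in each of the 14 libraries, with points coloured by group, triangles for the Gli3-/- library numbered 3 of each stage and bars for group medians. The triangles lie above the other libraries of their group for 8 genes and within the group for Hbb-bs and Hbb-bt, with Hba-x at 6144 TPM in E9.25 Gli3-/- library 3 against 1678 to 1972 TPM in the other 3.

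Hbb-y, the embryonic β-like globin of the maturing primitive red cell, had 7396, 4274 and 5011 TPM in the E9.25 WT libraries and 5315, 2389, 8114 and 3638 TPM in the E9.25 Gli3-/- libraries. At E10.5 it had 6010, 4862, 6494 and 5407 TPM in WT and 5480, 6287 and 15960 TPM in Gli3-/-. The groups overlapped at each stage, and only Gli3-/- library 3 at E10.5 exceeded all other libraries. No comparison of Hbb-y passed the test. The log2 fold change of TPM + 1 between genotypes was -0.30 ± 0.36 (SE) in E9.25 buds and 0.53 ± 0.32 at E10.5, and between stages 0.07 ± 0.19 in WT and 0.90 ± 0.44 in Gli3-/- (adjusted p = 0.163). Without E10.5 Gli3-/- library 3 the E10.5 genotype value was 0.0526 and the Gli3-/- stage value 0.42. With single libraries left out the E9.25 genotype value went from -0.59 to -0.0045.

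Hbb-bh1, the β-like globin of the youngest primitive red cells, had 8223, 4097 and 4960 TPM in E9.25 WT and 5649, 2806, 9052 and 3765 TPM in E9.25 Gli3-/-. At E10.5 it had 4174, 3515, 4536 and 3600 TPM in WT and 3914, 4077 and 11178 TPM in Gli3-/-. Apart from library 3, the E10.5 libraries lay within a narrow band at the lower end of the E9.25 values. In WT the log2 difference between stages was -0.49 ± 0.22 (SE, adjusted p = 0.0913). It passed without E9.25 WT library 2 (-0.70, adjusted p = 0.0218) and with median-of-ratios size factors (-0.83, adjusted p = 0.0137). Leaving out 1 library at a time took this WT value from -0.70 to -0.20. In Gli3-/- the difference between stages was 0.22 ± 0.43, and without E10.5 library 3 it was -0.27. Between genotypes the difference was -0.19 ± 0.37 in E9.25 buds and 0.52 ± 0.32 at E10.5, where it was 0.0221 without Gli3-/- library 3.

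A scaling that both genes of a library share, such as its blood content, cancels in their ratio. The ratio of Hbb-bh1 to Hbb-y was 1.11, 0.959 and 0.990 in E9.25 WT and 1.06, 1.17, 1.12 and 1.04 in E9.25 Gli3-/-. At E10.5 it was 0.694, 0.723, 0.698 and 0.666 in WT and 0.714, 0.649 and 0.700 in Gli3-/-. In both genotypes every E10.5 library lay below every E9.25 library, including the libraries numbered 3. On the log2 scale the ratio was 0.03 ± 0.11 (SD, n = 3) in E9.25 WT against -0.52 ± 0.05 (SD, n = 4) in E10.5 WT, a difference of -0.55 (exact two-sided permutation p = 0.0286). In Gli3-/- it was 0.13 ± 0.08 (SD, n = 4) against -0.54 ± 0.07 (SD, n = 3), a difference of -0.67 (exact two-sided permutation p = 0.0286). This p is the smallest that the 35 splits allow, and adjusted over the 8 ratio tests it was 0.114 for each stage comparison, so neither passed after adjustment. Between genotypes the ratio differed by 0.11 in the E9.25 buds (exact permutation p = 0.200) and by -0.02 in the E10.5 buds (exact permutation p = 0.686), and the ranges overlapped.

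**Figure D2:**
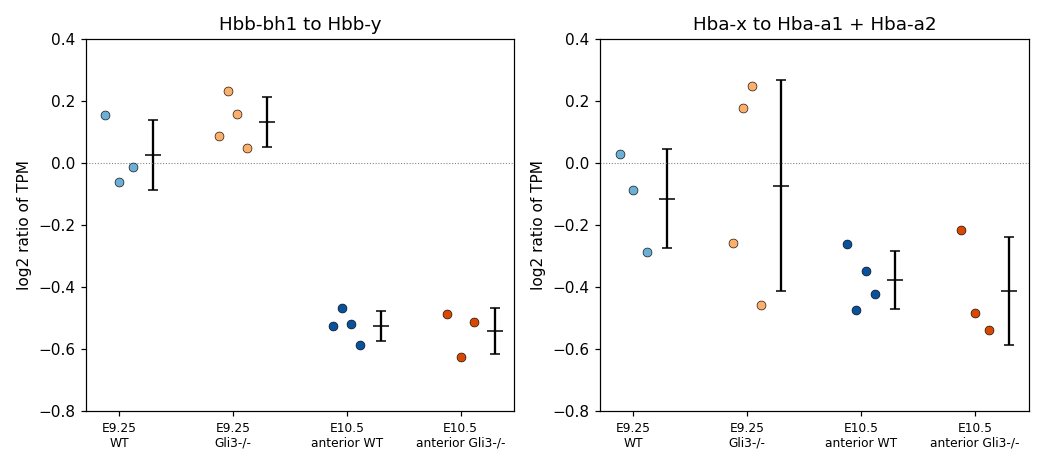
Log2 ratio of TPM within each library, for Hbb-bh1 to Hbb-y (left) and for Hba-x to the sum of Hba-a1 and Hba-a2 (right), with points for the libraries of each group and bars for the mean ± SD. On the left the 7 libraries of E9.25 lie at or above -0.06 and the 7 of E10.5 at or below -0.47, while on the right the groups overlap.

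Hba-x, the embryonic α-like chain, had 2678, 1530 and 1858 TPM in E9.25 WT, and 1972, 1678, 6144 and 1688 TPM in E9.25 Gli3-/-. At E10.5 it had 2535, 1689, 2738 and 1672 TPM in WT and 2485, 2595 and 6047 TPM in Gli3-/-. The groups overlapped, and library 3 was the highest of each mutant group. The log2 difference between genotypes was 0.30 ± 0.41 (SE) at E9.25 and 0.69 ± 0.31 at E10.5 (adjusted p = 0.264), and without the libraries numbered 3 these values were -0.15 and 0.27. The stage difference was 0.10 ± 0.24 in WT and 0.49 ± 0.46 in Gli3-/-. With single libraries left out the Gli3-/- value went from 0.0692 to 0.93.

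The α-globin Hba-a1 ranged from 816 TPM to 4898 TPM and Hba-a2 from 669 TPM to 3889 TPM. Both were highest in E10.5 Gli3-/- library 3 and lowest in E9.25 Gli3-/- library 2. The genes are near-identical copies, and reads that fit both cannot be assigned with certainty, so the ratio of Hba-a1 to Hba-a2, 1.19 to 1.36 in the 14 libraries, depends on how the authors' counting split them. At E10.5 the log2 difference between genotypes was 0.72 ± 0.34 (SE) for Hba-a1 and 0.74 ± 0.33 for Hba-a2, and without library 3 it was 0.24 and 0.25. The ratio of Hba-x to the sum of both was 1.02, 0.942 and 0.820 in E9.25 WT and 0.836, 1.13, 1.19 and 0.727 in E9.25 Gli3-/-. It was 0.835, 0.719, 0.786 and 0.746 in E10.5 WT and 0.861, 0.715 and 0.688 in E10.5 Gli3-/-. On the log2 scale the stage difference was -0.26 in WT (exact permutation p = 0.0857, adjusted p = 0.229) and -0.34 in Gli3-/- (exact permutation p = 0.229, adjusted p = 0.366). The groups overlapped, so a lower share of Hba-x at E10.5 was not separated from the spread between libraries.

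The adult-type β-globins followed a different pattern. Hbb-bs had 118, 32.3 and 72.4 TPM in E9.25 WT and 420, 79.8, 152 and 459 TPM in E9.25 Gli3-/-. At E10.5 it had 63.2, 45.9, 91.8 and 70.1 TPM in WT and 107, 487 and 406 TPM in Gli3-/-. The highest 4 libraries were all Gli3-/-, and at E10.5 every mutant library exceeded every WT library. At E9.25, 3 of the 4 mutant libraries did so and library 2 did not. At E10.5 Hbb-bs rose by 2.06 ± 0.46 (log2, SE, adjusted p = 0.0369, limma). This was the only member of the 10 called in that comparison, in which 4.77% of 15654 genes tested were called and 1.84% were called higher. In that comparison 7.87% of genes had every mutant library above every WT library. At E9.25 the difference was 1.74 ± 0.60 (SE, adjusted p = 0.217) and did not pass.

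Hbb-bt had 77.7, 23.0 and 52.7 TPM in E9.25 WT and 275, 54.2, 103 and 300 TPM in E9.25 Gli3-/-. At E10.5 it had 69.6, 34.4, 125 and 101 TPM in WT and 88.7, 340 and 338 TPM in Gli3-/-. The same 4 libraries were high, and mutant library 1 at E10.5 lay within the WT range. The log2 difference between genotypes was 1.66 ± 0.58 (SE, adjusted p = 0.217) at E9.25 and 1.54 ± 0.53 (SE, adjusted p = 0.147) at E10.5, and neither passed. With the TPM of Hbb-bs and Hbb-bt summed, since similar coding sequences can share reads, the difference at E10.5 was 1.80 ± 0.49 (adjusted p = 0.0742), which ends the call. The call of Hbb-bs alone held without WT library 3 (adjusted p = 0.0426) or mutant library 1 (0.000845). It was lost without WT library 1 (0.0779), 2 (0.0860) or 4 (0.0966) and without mutant library 2 (0.106) or 3 (0.138), with log2 values of 1.65 to 2.74 over these 7 fits. It was also lost without a filter (0.137), without a variance trend (0.0588) and with 1 model of 14 libraries (0.118). Hbb-bt at E10.5 passed without mutant library 1 (2.18, adjusted p = 0.0290), and its 7 fits with single libraries left out gave 1.17 to 2.18.

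As a share of all β-like globin TPM, the adult-type pair made up 0.656% to 1.24% in E9.25 WT and 0.950% to 1.93% in E10.5 WT. It made up 5.96%, 2.52%, 1.47% and 9.29% in E9.25 Gli3-/- libraries 1 to 4 and 2.04%, 7.39% and 2.67% in E10.5 Gli3-/- libraries 1 to 3. Every mutant library was above every WT library of its stage in this share, which was looked at after the values were seen and was not tested. The difference between stages was within the spread for both genes in both genotypes, at 0.01 ± 0.39 (log2, SE) for Hbb-bs and 0.69 ± 0.49 for Hbb-bt in WT. With the replicate number as a block both passed in Gli3-/- (0.68 and 0.90, adjusted p = 0.000769 and 2.83e-06, limma), although these numbers do not show a pairing. The ratio of Hbb-bs to Hbb-bt was 1.37 to 1.53 at E9.25, and 0.909, 1.34, 0.734 and 0.697 in the E10.5 WT and 1.208, 1.43 and 1.202 in the E10.5 Gli3-/- libraries.

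Alas2 had 25.8 to 40.5 TPM in E9.25 WT, 24.0 to 79.6 in E9.25 Gli3-/-, 26.98 to 42.6 in E10.5 WT and 39.7 to 94.7 in E10.5 Gli3-/-. The highest value of each mutant group was library 3, and no comparison passed (adjusted p of 0.319 to 0.726). Its annotated span overlaps Apex2 on the other strand, which had 14.7 to 22.9 TPM, and whether reads were assigned by strand is not given in the sources used here. Gata1 had 6.92, 5.19 and 4.85 TPM in E9.25 WT and 4.82, 4.82, 14.5 and 4.81 TPM in E9.25 Gli3-/-. At E10.5 it had 5.24, 3.04, 4.56 and 2.503 TPM in WT and 4.48, 4.43 and 10.3 TPM in Gli3-/-. Outside the libraries numbered 3, the mutant values of each stage were nearly equal. Klf1 had 8.85 to 15.5 TPM in E9.25 WT, 7.52 to 27.1 in E9.25 Gli3-/-, 5.55 to 10.2 in E10.5 WT and 8.19 to 20.1 in E10.5 Gli3-/-. In WT the log2 stage difference was -0.49 ± 0.23 (SE, adjusted p = 0.110) for Gata1 and -0.48 ± 0.26 (SE, adjusted p = 0.146) for Klf1. Both fell with median-of-ratios size factors (-0.77 and -0.79, adjusted p = 0.0189 and 0.0214) and with quantile normalization (-0.99 and -0.94, adjusted p = 0.00837 and 0.0131). With single libraries left out neither passed, at -0.62 to -0.34 for Gata1 and -0.61 to -0.24 for Klf1.

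Over the 10 genes, the counts were as follows. At E9.25, 0 of 10 passed between genotypes (2 at an unadjusted p under 0.05, limma), against 0.136% of 14760 genes tested (0.108% higher and 0.0271% lower), and 0 had groups that did not overlap, against 9.97% of genes with all mutant libraries higher and 3.36% with all lower. Of all 14760 genes tested, 3247 had an unadjusted p under 0.05 (limma) in this comparison. The median log2 fold change of the 10 was 0.22, beside 0.23 over all genes tested, and 8 of 10 values were positive. Without E9.25 Gli3-/- library 3 the median was -0.15 and 2 of 10 were positive. At E10.5, 1 of 10 passed and 1 had groups apart, against 1.84% of genes called higher, 2.93% called lower, and 7.87% and 11.5% with groups apart upward and downward. There all 10 had positive values, and their median was 0.63 beside -0.02 over all genes. Without E10.5 Gli3-/- library 3 that median was 0.23 and 0 passed. Between stages in WT, 0 of 10 passed (0 unadjusted), against 48.7% of 15444 genes (38.1% higher, 10.6% lower), and 0 had groups apart, against 41.5% upward and 12% downward, with a median of 0.08 beside 0.34 over all genes, and single libraries left out took the former from -0.0945 (without E9.25 library 2) to 0.30 (without E9.25 library 1). Size factors moved the all-gene median to 0.04 and the median of the 10 to -0.26, and 3 of the 10 were then called lower. In Gli3-/-, 0 of 10 passed between stages (0 unadjusted), against 25.0% of 15434 genes (15.8% higher, 9.17% lower), and 0 had groups apart, against 22.3% upward and 13.4% downward, with a median of 0.49 beside 0.06. With single libraries left out this median went from 0.0739 (without E10.5 library 3) and 0.18 (without E9.25 library 2) to 0.86 (without E10.5 library 1). The interaction of stage and genotype passed for 0 of 10 (0 unadjusted), against 2.13% of 16368 genes (0.477% higher, 1.65% lower). Genes with an unadjusted p under 0.05 (limma) numbered 8942 between stages in WT, 5749 in Gli3-/- and 3443 for the interaction. The genotype comparisons share their libraries with the stage comparisons, so these counts are not independent of each other.

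**Figure D3:**
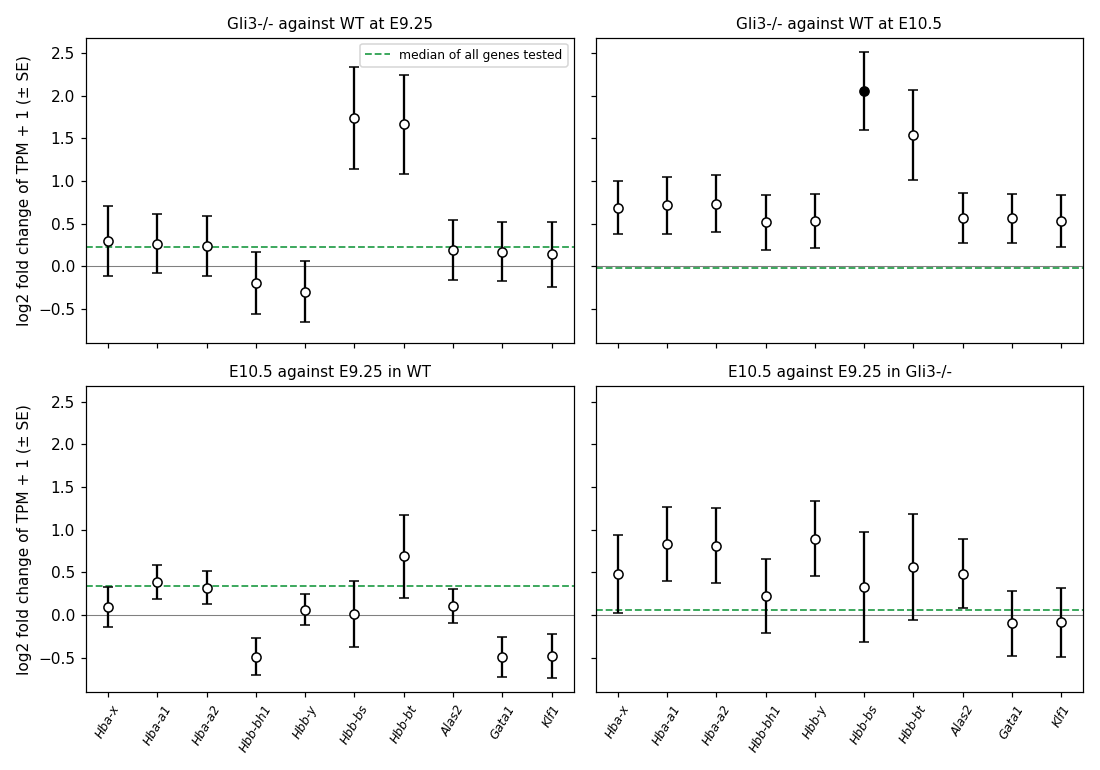
Log2 fold change of TPM + 1 with its SE for the 10 genes in 4 comparisons, filled where the adjusted p was under 0.05 (only Hbb-bs at E10.5), with a dashed line at the median of all genes tested. Hbb-bs and Hbb-bt stand at 1.54 to 2.06 between genotypes at both stages, and in WT Hbb-bh1, Gata1 and Klf1 lie near -0.5 between stages, below the dashed line at 0.34.

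Within groups, 8 of the 10 genes varied together from library to library. The deviations of log2(TPM + 1) from the group means had a Pearson's r of 0.82 to 1.00 over the 14 libraries for the 28 pairs among Hba-x, Hba-a1, Hba-a2, Hbb-bh1, Hbb-y, Alas2, Gata1 and Klf1 (median 0.94). Without both libraries numbered 3 the range was 0.59 to 0.99 with a median of 0.86. Hbb-bs and Hbb-bt followed each other (r = 0.97) and followed the other 8 less closely (16 pairs, r of 0.05 to 0.48, and 0.15 to 0.71 without both libraries). In E9.25 Gli3-/- library 3, the 8 genes were 2.15 to 3.45 times the mean of the other 3 mutant libraries, while Hbb-bs was 0.476 and Hbb-bt 0.492 times that mean. In E10.5 Gli3-/- library 3 the 8 genes were 2.31 to 2.80 times the mean of the other 2, Hbb-bs 1.37 and Hbb-bt 1.57 times. These correlations describe the same 14 libraries, share their depth and scaling, and were not tested.

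**Figure D4:**
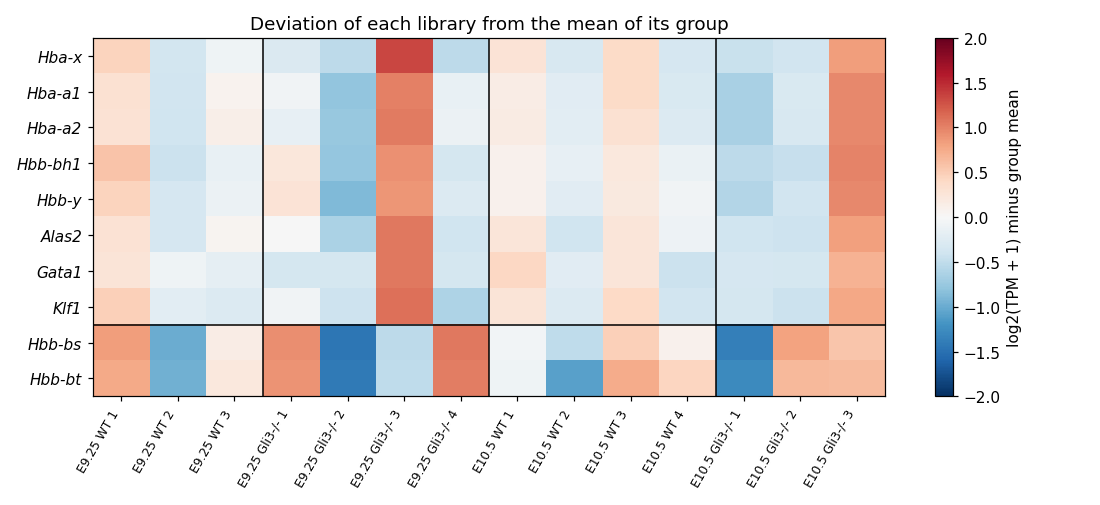
Deviation of log2(TPM + 1) from the group mean for each gene (rows) and library (columns), with red above and blue below the mean. The upper 8 genes are red together in the Gli3-/- libraries numbered 3, while Hbb-bs and Hbb-bt are red in E9.25 Gli3-/- libraries 1 and 4, in E10.5 Gli3-/- libraries 2 and 3 and also in WT, most in E9.25 library 1 (0.84 and 0.75) and E10.5 library 3 (0.47 and 0.74).

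Among 16368 genes, those outside the members whose deviations were most like the mean deviation of the 7 globins included more red cell genes. Among the 10 most alike were Gm37784 (r = 0.87), Mir8116 (0.86), the platelet receptor genes Gp9 (0.86) and Itga2b (0.85), Gm15989 (0.84), the θ-globin Hbq1b (0.83), the biliverdin reductase Blvrb (0.83), the blood group gene Rhd (0.83) and the carbonic anhydrase Car2 (0.83). Car2 had 30.8 to 121 TPM, and Mir8116 and Gm15989 stayed at or below 3.48 TPM. These values are over 14 libraries and without a test.

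Other erythroid genes were read in 5 lists of 68 genes in all, of which 60 could be tested. At E9.25 none of the 60 passed between genotypes (6 at an unadjusted p under 0.05, limma, beside 3247 of all 14760 genes tested). The largest differences were in Sptb, a spectrin of the red cell skeleton (4.74 to 9.74 TPM in WT, 11.6 to 35.5 in Gli3-/-, log2 1.25 ± 0.35, adjusted p = 0.206), Zfpm1, the GATA1 partner FOG1 (0.90 ± 0.26, adjusted p = 0.207), and Cbfa2t3, a co-repressor of the GATA1 and TAL1 complex (0.86 ± 0.28, adjusted p = 0.217). Slc25a37, the mitochondrial iron carrier, stood at 0.57 ± 0.31 (adjusted p = 0.273). At E10.5, 3 of the 60 rose and 1 fell, against 1.84% of all genes called higher and 2.93% lower. Cbfa2t3 rose from 2.66 to 2.81 TPM in WT to 6.02 to 7.42 TPM in Gli3-/- (1.05 ± 0.11, adjusted p = 0.00118). Lmo2, the bridging protein of that complex, rose from 23.6 to 30.9 TPM to 38.9 to 61.2 TPM (0.88 ± 0.15, adjusted p = 0.0109). Pim1, a kinase, rose by 0.51 ± 0.08 (adjusted p = 0.00560). The Lmo2 call was lost without a filter (adjusted p = 0.0586) and the Pim1 call with 1 model of 14 libraries (adjusted p = 0.115). Sox6, a factor of globin silencing that other tissues also use, fell by 0.86 (SE 0.18, adjusted p = 0.0299). The Sox6 call was lost without a filter (adjusted p = 0.110), with 1 model of 14 libraries (0.154), without WT library 1 (adjusted p = 0.056), 3 (0.0668) or 4 (0.0832) and without mutant library 1 (0.0953) or 3 (0.099). The 18 red cell membrane genes tested had positive values with 0 passing (1 unadjusted) and a median of 0.36, with 0.67 ± 0.29 for Cldn13. Car2 stood at 0.78 ± 0.31 (adjusted p = 0.204). Without Gli3-/- library 3 these values were 0.27 and 0.31, and outside that library the summed TPM of the membrane list, at most 261 in Gli3-/-, lay within the 211 to 280 of WT. At E10.5 the 14 heme and iron genes had a median of 0.01 with 0 passing (2 unadjusted). Of all 15654 genes tested at E10.5, 3061 had an unadjusted p under 0.05 (limma).

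Between stages in WT, 11 of the 60 genes were called higher and 5 lower, beside 38.1% and 10.6% of all genes, and the shares were not compared by a test. Bcl11a, known as a silencer of embryonic globin genes and also active in other tissues, had 0.980 to 1.91 TPM at E9.25 and 20.8 to 33.3 TPM at E10.5. It is 1 of the 11 but reached the filter only through the E10.5 libraries, so its levels are given without a call. Myb, a factor of blood progenitors, rose by 1.70 ± 0.16 (adjusted p = 0.000189), Rhd by 1.29 ± 0.20 (0.00157), Zbtb7a by 0.97 ± 0.22 (0.00833), the heme enzyme gene Ppox by 0.94 ± 0.16 (0.00248), the glycophorin gene Gypc by 0.86 ± 0.15 (0.00292) and Epb41 of the membrane skeleton by 0.75 ± 0.17 (0.00758). Bcl2l1 rose by 0.59 ± 0.12 (0.00593) and Prdx2 by 0.43 ± 0.08 (0.00388), but with size factors neither passed (0.25 and 0.08). Of the genes that fell, Hbb-bh0, a β-like globin listed with a feature of 129 bases, dropped by 2.18 (SE 0.35, adjusted p = 0.00199), from 203 to 338 TPM to 34.5 to 108 TPM. Zfpm1 fell by 1.47 (SE 0.20, adjusted p = 0.000834) and Car2 by 0.93 (0.15, 0.00220). In Gli3-/-, 5 of the 60 were called higher and 4 lower between stages, beside 15.8% and 9.17% of all genes. Bcl11a (0.762 to 2.30 TPM at E9.25, 23.8 to 33.5 TPM at E10.5) and Gata2 are among them but reached the filter through 1 stage only. Myb (1.38 ± 0.15), Gypc (0.76 ± 0.19) and Prdx2 (0.54 ± 0.10) rose, and Zfpm1 (-2.001 ± 0.25), Sox6 (-1.48 ± 0.21) and the transferrin receptor Tfrc (-0.49 ± 0.14) fell. The Gypc call was lost without E10.5 library 2 (adjusted p = 0.0719) or 3 (0.0521), and the Tfrc call without E9.25 library 3 (0.0661) or 4 (0.0608) and without E10.5 library 1 (0.0677) or 2 (0.138). The Tfrc call was further lost without a filter (0.0743), without a trend (0.0505), with quantile normalization (0.0561) and with 1 model of 14 libraries (0.099). Rhd (1.11 ± 0.39, adjusted p = 0.0649) and Hbb-bh0 (-1.04 ± 0.63, adjusted p = 0.261) did not pass there.

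Markers of other cell types moved with some of these results. At E9.25 the 14 endothelial markers, none of them at 0, summed to 135 to 236 TPM in WT and 251 to 390 TPM in Gli3-/- libraries, with 12 of 14 above the median of all genes (list median 0.71 beside 0.23). Cdh5, VE-cadherin, stood at 1.06 ± 0.28 (SE, adjusted p = 0.189), and 0 of the 14 passed. An unadjusted p under 0.05 (limma) was found for 9 of the 14, beside 3247 of all 14760 genes tested. At E10.5 the same endothelial markers summed to 180 to 216 TPM in WT and 175 to 227 TPM in Gli3-/-, and these ranges overlapped. Lists of the limb bud's own tissues did not overlap in that comparison. The 10 limb mesenchyme markers, none at 0, summed to 1118 to 1341 TPM in WT and 825 to 920 TPM in Gli3-/-, and 6 fell and 1 rose (median -0.52), with -1.40 ± 0.13 for Meis1 and 1.05 ± 0.10 for Fgf10. The 10 ectoderm markers, none at 0, summed to 232 to 299 TPM in WT and 322 to 365 TPM in Gli3-/-, with a median of -0.25, and the 1 called was Fgf8 (1.36 ± 0.12, adjusted p = 0.000501). The platelet list summed to 25.1 to 31.1 TPM in WT and 35.0 to 54.8 TPM in Gli3-/- at E10.5, where Ppbp rose by 0.88 ± 0.13 (adjusted p = 0.00638), a call lost with 1 model of 14 libraries (adjusted p = 0.184). Gp9 had 0.451 to 0.639 TPM in WT and 1.11 to 3.15 TPM in Gli3-/-, and it reached the filter only through the mutant libraries, so its difference is given without a call. Macrophage and white cell markers summed to 0.0634 to 2.38 TPM at E9.25, where C1qa, Adgre1 and Aif1 were listed at 0 in every library, and to 20.2 to 31.8 TPM at E10.5. In WT, Tyrobp had at most 0.294 TPM at E9.25 and 2.75 to 4.31 TPM at E10.5. These markers reached the filter only through the E10.5 libraries, so no count of calls is given. Pf4 rose between stages in WT (0.64 ± 0.19) and in Gli3-/- (1.23 ± 0.32), but in WT it did not pass with quantile normalization (0.21), size factors (0.32) or 1 model of 14 libraries (adjusted p = 0.0795). In Gli3-/- it did not pass without a filter (adjusted p = 0.0759) or with quantile normalization (0.0503). The Pf4 call was also lost without E9.25 library 3 (adjusted p = 0.0569) or E10.5 library 4 (0.0676) in WT, and without E10.5 library 2 (0.0573) or 3 (0.0727) in Gli3-/-. In the Gli3-/- libraries numbered 3, the red cell membrane list summed to 466 TPM at E9.25 and 420 TPM at E10.5, against at most 250 and 261 TPM in the other mutant libraries of each stage, while the endothelial sums of 312 and 175 TPM did not exceed those of the other mutant libraries. The part of these cell types in the globin values was not tested.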

How the data were processed

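RNA was extracted by the authors with TRIzol, made into libraries with the NEBNext Ultra II RNA kit, sequenced as single reads of 100 bases and aligned with HISAT2. For each gene the authors deposited coverage (mean read depth per base), FPKM (relative to feature length and library depth) and TPM (relative to length, with 1 common total for all libraries). The tool behind these values, the annotation and the use of strand are not given in the sources used here, and mm10 comes from the submitters' processing notes. Read counts were not analysed here.

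Gene IDs on several lines were summed. Only genes that reached a TPM of 1 in 3 or more compared libraries entered the test on log2(TPM + 1) with limma 3.58.1 in R 4.3.3 (lmFit, eBayes with a trend). Two-sided p-values were adjusted (Benjamini-Hochberg) over all genes tested, and genes under 0.05 were called. A fold change on this scale understates the change of low genes. The 8 ratio tests were exact permutations of the difference of group means, with 35 splits each. The number of reads in a library was inferred from its modal coverage-to-FPKM quotient with reads of 100 bases, and a gene's reads per kilobase from its coverage. Intervals for single libraries were not computed, and libraries are pools of buds, so that p-values measure the spread between pools. SciPy 1.17.1, NumPy 2.4.6, pandas 2.3.3 and matplotlib 3.10.9 ran under Python 3.11.15. The fits were tested on simulated data.

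The 10 genes and the gene lists were chosen with earlier results of these data known. Named genes are the 10 members, Gli3, up to 4 genes per list and comparison with the largest absolute log2 fold change among those tested, called genes of the lists of other cell types, and the 10 genes most like the mean globin deviation. Ahsp was not analysed here. Some genes that this rule names are not reported here. Alternatives were a pseudocount of 0.1, no filter or a filter at a TPM of 5, no trend, scaling by quantiles or by median-of-ratios size factors, TPM rescaled without the globins, the replicate number as a block, 1 model of 14 libraries, near-identical pairs summed, and each library left out. Leaving out both Gli3-/- libraries numbered 3 was added after seeing the data.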

Additional observations from a re-analysis of the deposited data

Results flagged for a closer look

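In E9.25 Gli3-/-, library 3 lay far above the other 3 for Hba-x (6144 TPM against 1678 to 1972) and for Gata1 (14.5 TPM against 4.81 to 4.82). On log2(TPM + 1) its gap to the nearest library, as a share of the whole range of the group, was 0.876 for Hba-x and 0.998 for Gata1, above Dixon's 95% critical value for 4 samples. Chance flags about 1 in 20 groups. The check was run for every member, Hbb-bh0, Hbq1b, both ratios and the globin share in each group of 4 libraries, and only these values exceeded it. They come from the same library, and Hba-x and Gata1 vary together (r = 0.97), so they are not separate outliers. Red cell membrane genes were also highest in this library (466 against at most 250 TPM), and the part of blood content in these values was not tested.

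The genotype difference changed with stage for 2 genes of the erythroid transcription factor list. For Sox6 the difference between genotypes was lower at E10.5 than at E9.25 by a log2 interaction of -1.71 ± 0.39 (SE, adjusted p = 0.0340, limma), and for Lmo2 it was higher by 1.09 ± 0.23 (SE, adjusted p = 0.0227). Sox6 passed in 7 of 14 fits that left out 1 library and Lmo2 in 9 of 14. Without a filter the adjusted p was 0.0902 and 0.0542. Without both Gli3-/- libraries numbered 3 the values were -1.65 (adjusted p = 0.198) and 0.97 (adjusted p = 0.145).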

How the results depend on the processing

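The stage difference in the ratio of Hbb-bh1 to Hbb-y was -0.59 to -0.49 in WT and -0.70 to -0.63 in Gli3-/- with single libraries left out. Its direction could not change in these fits, because every E10.5 library lay below every E9.25 library. A scaling shared by both genes cancels in the ratio, so rescaling a library cannot test it either. Between genotypes the ratio of Hbb-bh1 to Hbb-y at E10.5 spanned -0.0446 to 0.0251, and that of Hba-x to the α-globins spanned -0.0649 to 0.171 in the E9.25 and -0.135 to 0.0266 in the E10.5 libraries. For single values named, 1556 of 1721 refits kept direction and call. For the counts of calls and the ratios, 204 of 261 refits were classed as the same, 50 as moved and 7 as reversed.

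The replicate numbers do not show a pairing: same-numbered libraries had correlations of deviations of -0.29 to 0.15 over the 4 comparisons, and the E10.5 Gli3-/- tables are numbered 2 to 4 but their titles 1 to 3. With the replicate block, the members called were 2 at E9.25 (Hbb-bs and Hbb-bt), 0 at E10.5 and 2 between stages in WT (Hba-a1 and Hba-a2). Between stages in Gli3-/- they were 5 (Hba-a1, Hba-a2, Hbb-bs, Hbb-bt and Hbb-y), and there limma pooled the variance fully over genes. All genes called with the block were 66, 164 and 4699 in the first 3 comparisons and 138 for the interaction, beside 20, 747, 7520 and 348 without it. At E10.5 the block also ended the calls of Lmo2 (adjusted p = 0.0579), Pim1 (0.104), Sox6 (0.185) and Hbb-bs (0.136), between stages in WT that of Pf4 (0.0812), and it ended the interaction calls of Sox6 (0.101) and Lmo2 (0.0721). Without a filter 0 genes passed at E9.25 and 391 at E10.5, with 0 members. With 1 model of 14 libraries 1185 and 406 genes passed, with 0 members at E10.5, and 0 also without a trend. Between stages in WT, 2 members were called lower with quantile normalization and 3 with size factors. Without both Gli3-/- libraries numbered 3, 1851 genes passed between stages in Gli3-/- and 100 for the interaction. Higher and lower calls were 16 and 4 at E9.25 (16 and 10 with size factors), 5885 and 1635 between stages in WT (3184 and 3274), 2437 and 1416 between stages in Gli3-/- (2342 and 2186 with quantile normalization) and 78 and 270 for the interaction (164 and 181 with quantile normalization).

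With single libraries left out, 2 to 196 genes passed at E9.25, 301 to 680 at E10.5, 2129 to 4326 between stages in Gli3-/- and 150 to 1433 for the interaction. Members called were 0 to 2 at E10.5, 0 to 1 between stages in WT (1 without E9.25 WT library 2) and 0 to 2 in Gli3-/- (2, Hba-a1 and Hba-a2, without E9.25 library 3).

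Values near 0 changed sign in some alternatives. At E9.25, quantile normalization gave -0.0315 for Alas2, -0.0936 for Gata1, 0.0283 for Hbb-bh1 and -0.13 for Klf1, and size factors gave -0.0352, -0.0298 and -0.0762 for Alas2, Gata1 and Klf1. Between stages in WT, quantile normalization gave -0.15 for Alas2 and -0.14 for Hbb-bs, size factors gave -0.23 for Alas2, -0.0252 for Hba-a2, -0.25 for Hba-x, -0.33 for Hbb-bs and -0.28 for Hbb-y, and the block gave -0.0171 for Hbb-bs. Between stages in Gli3-/-, quantile normalization gave -0.0647 for Hbb-bh1, and without both libraries numbered 3 Hbb-bs was -0.12. For the interaction Hbb-bs was -0.14 without both libraries, and Hbb-bt was 0.18 with quantile normalization, 0.14 with size factors, 0.36 with the block and 0.0823 with the pair summed. Leaving out single libraries gave the following ranges. At E9.25 they were -0.16 to 0.41 for Alas2, -0.18 to 0.31 for Gata1, -0.0679 to 0.53 for Hba-a1, -0.10 to 0.49 for Hba-a2, -0.15 to 0.52 for Hba-x, -0.49 to 0.10 for Hbb-bh1 and -0.23 to 0.38 for Klf1. Between stages in WT they were -0.0604 to 0.25 for Alas2, -0.084 to 0.32 for Hba-x, -0.48 to 0.43 for Hbb-bs and -0.11 to 0.29 for Hbb-y. In Gli3-/- they were -0.45 to 0.26 for Gata1, -0.27 to 0.53 for Hbb-bh1, -0.16 to 1.01 for Hbb-bs and -0.47 to 0.28 for Klf1. For the interaction they were -0.0318 to 0.72 for Alas2, -0.0311 to 0.78 for Hba-a1, -0.028 to 0.84 for Hba-x, -0.17 to 1.00 for Hbb-bs and -0.60 to 0.51 for Hbb-bt. The cause was not tested.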
